A study of Mus musculus with 92 samples.

Results

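The genes described here are 7 genes of cholesterol synthesis and its feedback control: Hmgcs1, Idi1, Fdft1, Sqle, Lss and Cyp51, which encode enzymes, and Insig1, which encodes a sensor protein of the pathway. They were taken by gene symbol from 4 tables of raw read counts that each list 54532 genes, and all 7 symbols were found in every table. The tables hold 92 mouse RNA-seq libraries in 21 groups: crypts and villi of the intestine, organoids grown from small intestine, and fetal spheroids. Polyadenylated RNA was sequenced in a study of Eif4g2, which encodes a translation initiation factor related to eIF4G, and of A-485, an inhibitor of the acetyltransferases p300 and CBP.

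Every mouse and culture carried CreER, a recombinase that tamoxifen or its active form 4-OHT switches on, so that the control groups carried it too. In the first tissue set CreER was driven from Rosa26, which is active in nearly all cell types. Crypts and villi were taken on day 9 after tamoxifen at 100 mg/kg from Eif4g2 flox/+ mice (heterozygous, 5 crypt and 5 villus libraries) and flox/flox mice (homozygous, 4 crypt and 5 villus libraries). In the other tissue set CreER was driven from Vil1, an epithelial promoter, and tissue was taken at 3 months after the same tamoxifen dose (4 heterozygous and 3 homozygous crypt libraries, 4 heterozygous and 6 homozygous villus libraries). No tissue group lacked a floxed Eif4g2 allele, so every tissue comparison sets induced deletion of both copies against that of 1. All organoids and spheroids carried Rosa26-CreER. The first organoid set held 3 flox/flox lines, each given DMSO or 0.5 µM 4-OHT and collected on day 6. The second set held 4 wild-type (CreER only), 4 flox/+ and 4 flox/flox libraries, all given 4-OHT, so that it has no untreated group. Fetal spheroids, cultures of immature intestinal epithelium, comprised 5 flox/+ and 6 flox/flox lines, each with DMSO and with 4-OHT. A-485 was given at 3, 5 or 10 µM, beside DMSO, to 4 organoid lines with both Eif4g2 alleles intact, which were taken on day 4. By its library names, 1 of these lines bears the line number of a flox/flox line of the first organoid set. Where separate animals or cultures are not stated for libraries of a group, p-values measure only the spread between these libraries.

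Cholesterol is built from acetyl-CoA through mevalonate, isoprenoid units, squalene and lanosterol. When sterols run low in the endoplasmic reticulum, SCAP escorts the transcription factor SREBP2 to the Golgi, where it is cleaved and freed to switch on nearly every gene of the pathway. INSIG1 holds SCAP back when sterols are plentiful, and its own gene is an SREBP2 target, so that its transcript follows the demand for sterol together with those of the enzymes. The small intestine both absorbs cholesterol and makes it, and crypt cells have long been known as a site of synthesis.

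The promoters of the members are shown because the genes rose and fell together in several comparisons. RefSeq's table for GRCm38.p6 holds 5 of the 7 members, and the 250 bases before each listed start are printed 5′ to 3′ on the gene's strand. Fdft1 and Sqle are named only. Capitals mark 3 motifs searched on both strands: TCACNCCAC, a core of the sterol response element that SREBP2 binds, and CCAAT and GGGCGG, the sites of NF-Y and Sp factors that act beside it.
Hmgcs1, chr13:119690101-119690350, + strand: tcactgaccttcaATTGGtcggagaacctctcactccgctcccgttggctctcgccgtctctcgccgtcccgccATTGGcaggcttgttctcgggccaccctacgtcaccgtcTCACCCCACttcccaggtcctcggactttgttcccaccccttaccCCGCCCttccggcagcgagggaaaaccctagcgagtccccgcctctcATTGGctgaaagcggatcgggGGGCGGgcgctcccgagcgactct
Idi1, chr13:8885356-8885605, + strand: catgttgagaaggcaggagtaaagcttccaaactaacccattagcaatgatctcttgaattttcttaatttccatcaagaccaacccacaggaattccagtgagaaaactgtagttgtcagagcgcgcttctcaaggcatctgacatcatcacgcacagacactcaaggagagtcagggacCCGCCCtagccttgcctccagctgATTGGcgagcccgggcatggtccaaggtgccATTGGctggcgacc
Lss, chr10:76531355-76531604, + strand: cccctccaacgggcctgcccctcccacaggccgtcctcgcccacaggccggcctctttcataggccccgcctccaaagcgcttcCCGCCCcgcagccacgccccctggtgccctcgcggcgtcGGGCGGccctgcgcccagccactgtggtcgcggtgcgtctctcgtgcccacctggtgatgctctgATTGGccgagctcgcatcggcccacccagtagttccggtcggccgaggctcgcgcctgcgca
Cyp51, chr5:4104698-4104947, - strand: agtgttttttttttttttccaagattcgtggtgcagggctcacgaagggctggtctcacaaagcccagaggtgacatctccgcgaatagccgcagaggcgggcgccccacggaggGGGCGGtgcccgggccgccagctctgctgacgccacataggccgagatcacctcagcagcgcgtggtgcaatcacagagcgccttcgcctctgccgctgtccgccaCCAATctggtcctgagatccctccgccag
Insig1, chr5:28071162-28071411, + strand: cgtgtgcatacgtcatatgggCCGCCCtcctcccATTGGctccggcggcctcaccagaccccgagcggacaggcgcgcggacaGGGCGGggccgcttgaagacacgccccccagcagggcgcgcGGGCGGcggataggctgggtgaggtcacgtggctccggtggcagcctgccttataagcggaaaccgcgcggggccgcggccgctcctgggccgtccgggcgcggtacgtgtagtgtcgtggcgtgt
TCACNCCAC was found in 1 of the 5 members, Hmgcs1, as TCACCCCAC beginning 137 bases before the start, and in 1.05% of the 32851 promoters in the table. CCAAT was found in all 5, against 33.8% of promoters, and GGGCGG in all 5, against 32.7%. These matches describe the letters of this window only.

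Levels are given as CPM, read counts scaled to library size with TMM (the trimmed mean of M-values) over all 92 libraries. Library totals ran from about 8652040 to 37611100 counts, and no member had fewer than 167 counts in any library. All 5 epithelial markers were read in every library, and in heterozygous mice all 4 stem cell and 3 Paneth cell markers were higher in crypts and all 6 enterocyte markers higher in villi. In cultures the summed level of 9 immune markers was at most 2.31 CPM, and in tissue it was 53.6 to 2316 CPM. Eif4g2 itself (chromosome 7, 111067750 to 111083030) fell in all 4 tissue comparisons of homozygous with heterozygous mice, by 1.98 and 2.70 on the log2 scale in Rosa26-CreER crypts and villi and by 0.99 and 1.37 in Vil1-CreER crypts and villi. Mean Eif4g2 levels in homozygous mice were still 117 and 68.7 CPM in Rosa26-CreER crypts and villi, against 451 and 425 CPM in heterozygous mice. In Vil1-CreER crypts and villi they were 299 and 174 CPM, against 582 and 436 CPM. Because these are bulk samples, fewer cells of a type and less RNA per cell cannot be told apart.

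All 7 genes are protein coding, and the positions in the tables match GENCODE release M21 on GRCm38. Hmgcs1 lies on chromosome 13 from 119690379 to 119708260, Idi1 on chromosome 13 from 8885501 to 8892451, Fdft1 on chromosome 14 from 63145150 to 63179578, and Sqle on chromosome 15 from 59315077 to 59331192. Lss lies on chromosome 10 from 76531588 to 76557138, and Cyp51 and Insig1 both lie on chromosome 5, from 4081145 to 4104746 and from 28071363 to 28078662. On the opposite strand Fdft1 overlaps Ctsb, Cyp51 overlaps Akap9, Hmgcs1 overlaps Gm48342, Idi1 overlaps Gm48574 and Lss overlaps 4930483K19Rik. The libraries were made strand specific, but whether strand was used in counting is not given in the sources used here, so that reads of such pairs may not be separated.

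**Figure D1:**
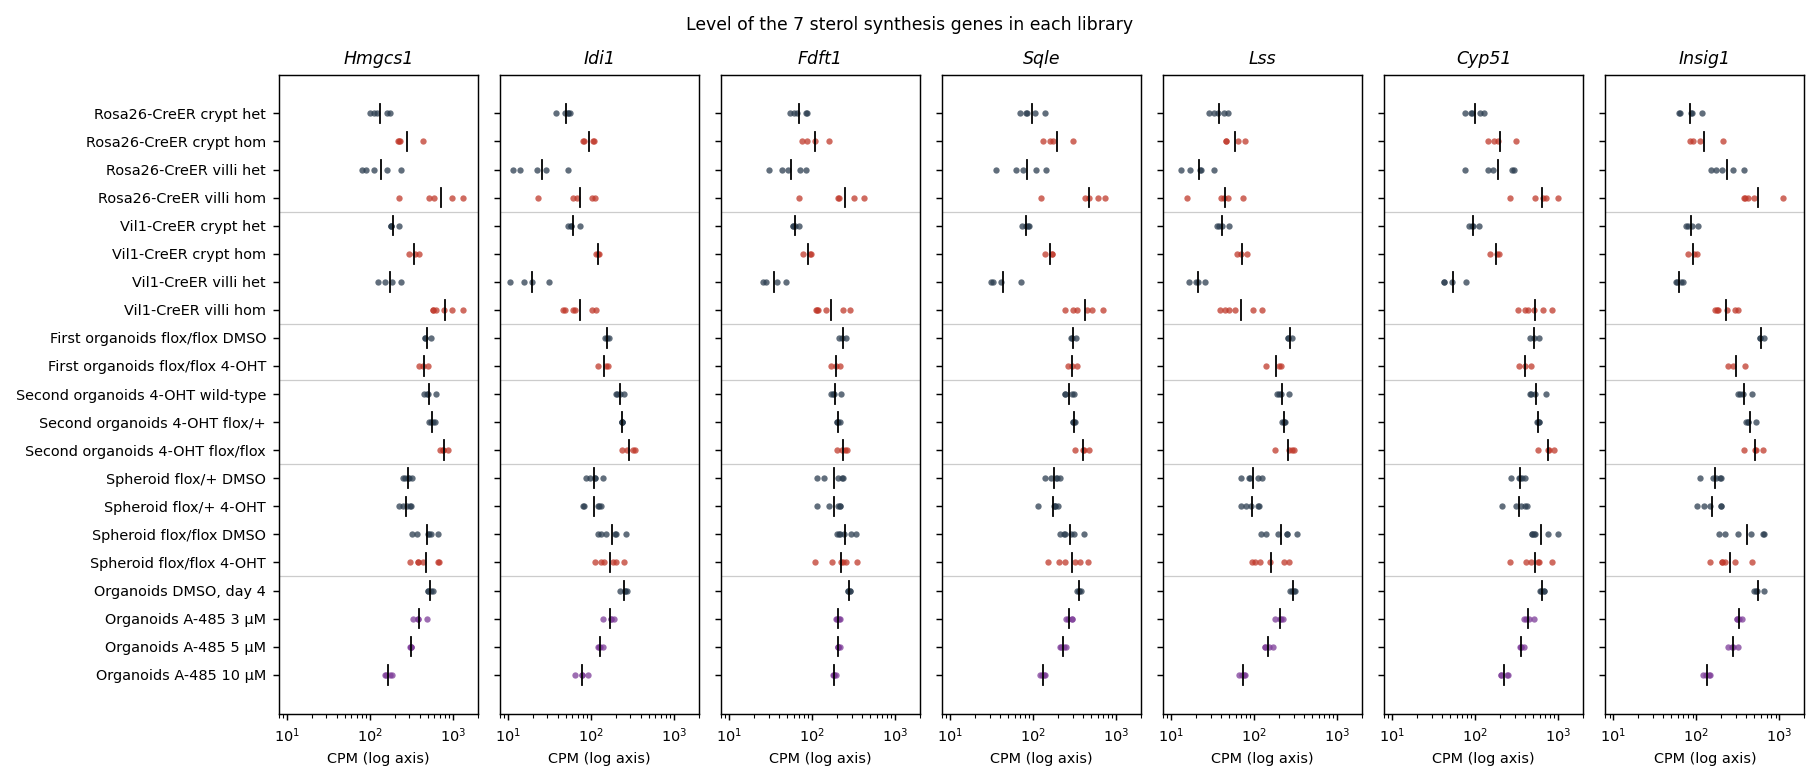
Level of each member in every library, in CPM on a log axis, with 1 row per group. Points are libraries, black bars are group means, red marks groups that lost both Eif4g2 copies and purple marks A-485; most homozygous villus libraries sit to the right of the heterozygous ones, and the purple points move left as the dose rises.

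Summed over the 7 genes, the level was lowest in heterozygous Vil1-CreER villi (410.4 ± 109 CPM, SD, n = 4) and highest in second-set flox/flox organoids (3215 ± 481 CPM, n = 4), a 7.83-fold range of group means. Ordered by this sum, the groups ran from second-set flox/flox organoids through day 4 DMSO organoids (2913), homozygous Rosa26-CreER villi (2752), first-set DMSO organoids (2578), flox/+ organoids (2558), flox/flox DMSO spheroids (2447), wild-type organoids (2322), homozygous Vil1-CreER villi (2301), flox/flox 4-OHT spheroids (2099), 3 µM A-485 (2017), first-set 4-OHT organoids (1964) and 5 µM A-485 (1659). The remaining groups were flox/+ spheroids with DMSO (1369) and with 4-OHT (1323), homozygous Rosa26-CreER and Vil1-CreER crypts (1057 and 1052), 10 µM A-485 (992), heterozygous Rosa26-CreER villi (748), and heterozygous Vil1-CreER crypts (620.5), Rosa26-CreER crypts (571) and Vil1-CreER villi. Of the 20 neighbouring pairs in this order, 19 had overlapping library values. Across tables this order sets libraries of separate experiments on 1 scale. Per kilobase of gene length, the median of the 21 group means was highest for Cyp51 (90.6 CPM per kb) and lowest for Lss (8.93 CPM per kb). Idi1 had the widest range of group means, 15.1-fold, and Hmgcs1 the narrowest, 6.06-fold.

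Induced deletion of both Eif4g2 copies was compared with that of 1 in villi, the differentiated surface of the intestine. The largest log2 differences of the members were found there. In Vil1-CreER villi at 3 months all 7 members were higher in homozygous mice by edgeR's quasi-likelihood test (adjusted p under 0.05, Benjamini-Hochberg over all genes tested), against 20.9% of all genes called higher. Cyp51, which removes a methyl group from lanosterol, rose 9.52-fold (log2 3.25 ± 0.28 SE, adjusted p = 2.93e-06) and Sqle, the epoxidase that acts on squalene at a controlling step, rose 9.28-fold (log2 3.21 ± 0.33, adjusted p = 1.58e-05). The members' median log2 difference was 2.17, beside 0.05 for all 15107 genes tested. For every member all homozygous libraries lay above all heterozygous ones, which held for 14.8% of all genes tested, and all 7 calls held when any 1 library was left out.

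For Sqle the 4 heterozygous Vil1-CreER villus libraries read 70.8, 40.9, 31.5 and 32.5 CPM. The 6 homozygous libraries ran from 241 CPM through a median of 391.9 to 688 CPM. The lowest homozygous library thus lay far above the highest heterozygous one. For Cyp51 the heterozygous libraries read 77.8, 51.9, 42.5 and 41.8 CPM, and the homozygous ones ran from 331 through 468 to 829.5 CPM. Hmgcs1, the synthase that makes HMG-CoA from acetyl-CoA units, read 240.0, 183, 127 and 154 CPM in heterozygous villi and ran from 578 through 700 to 1340 CPM in homozygous villi (log2 2.17 ± 0.27, adjusted p = 4.85e-05). Among the others, Fdft1, the squalene synthase at the branch towards sterols, rose by 2.24 ± 0.31 on the log2 scale, Idi1, the isomerase of isoprenoid units, by 1.88 ± 0.34, Insig1 by 1.83 ± 0.19, and Lss, the cyclase that forms lanosterol, by 1.67 ± 0.32.

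Most other enzymes of the pathway rose with the members in Vil1-CreER villi, where 3155 of all 15107 genes tested rose and 3267 fell. Of 14 other enzymes from acetyl-CoA to cholesterol 11 rose and 0 fell, with Fdps, the farnesyl diphosphate synthase, up by 2.44 ± 0.33 and Msmo1, the sterol oxidase after Cyp51, up by 2.44 ± 0.22 on the log2 scale. Of 10 regulators 4 rose and 1 fell: Srebf2, the gene of SREBP2, rose by 1.47 ± 0.18 and Scap by 1.28 ± 0.13. A list of 12 genes of sterol uptake, efflux and esterification, here called transport genes, also holds the regulators Mylip, Nr1h2 and Nr1h3. Of these 12 genes 2 rose and 6 fell, with the efflux transporters Abca1 down by 2.66 ± 0.34 and Abcg1 down by 1.56 ± 0.42.

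In Rosa26-CreER villi on day 9, 6 of 7 members were higher in homozygous mice, against 15.0% of all genes called higher, and the members' median log2 difference was 1.67 beside -0.01 for all genes. Sqle rose 5.30-fold (log2 2.41 ± 0.48, adjusted p = 0.00429), Hmgcs1 5.17-fold (log2 2.37 ± 0.47, adjusted p = 0.00419) and Fdft1 4.18-fold (log2 2.06 ± 0.44, adjusted p = 0.00594) by edgeR's quasi-likelihood test. Cyp51 rose by 1.67 ± 0.40, Idi1 by 1.43 ± 0.49 and Insig1 by 1.19 ± 0.35 on the log2 scale (adjusted p = 0.0102, 0.0457 and 0.0231). Lss was 0.97 ± 0.36 higher on the log2 scale and did not pass (adjusted p = 0.0593). Libraries within each genotype were far apart: Sqle read 142, 109, 75.2, 62.9 and 35.4 CPM in heterozygous villi and 733, 607, 474, 417 and 125 CPM in homozygous villi. The homozygous library that read 125 CPM, replicate 5, fell below the highest heterozygous library, and the remaining 4 lay well above it. It was the lowest homozygous library for 6 of the members, all but Insig1. Insig1 alone of the members did not overlap between genotypes, where 11.7% of all genes lay wholly above, at 276, 370, 172, 202 and 151 CPM against 1102, 497, 378, 415 and 388 CPM.

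Among the same other enzymes 8 rose and 1 fell in Rosa26-CreER villi, with Fdps up by 2.35 ± 0.44 and Mvd, the last enzyme of the mevalonate branch, up by 1.90 ± 0.48 on the log2 scale. Of the 10 regulators 2 rose and 1 fell, and those that rose were Srebf2 (1.19 ± 0.19) and Scap (0.51 ± 0.11). Of the transport genes 0 rose and 1 fell, the absorption receptor Npc1l1, by 0.70 ± 0.23. Without homozygous replicate 5, Lss passed as well (adjusted p = 0.00511), and without heterozygous replicate 1 it also did (0.0409). Idi1 lost its call without any 1 of 8 libraries, namely homozygous replicate 1, 2, 3 or 4 or heterozygous replicate 2, 3, 4 or 5 (adjusted p up to 0.0991), and Insig1 lost its call without heterozygous replicate 4 or 5 (0.0541 and 0.0568). Without a low-count filter 4 of 7 members were called, and Idi1 and Insig1 were not (adjusted p = 0.12 and 0.0735). Lss passed by DESeq2's Wald test (adjusted p = 0.0174), with all 4 Rosa26-CreER groups in the fit (0.0166) and with the series of animal numbers as a covariate (0.03).

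**Figure D2:**
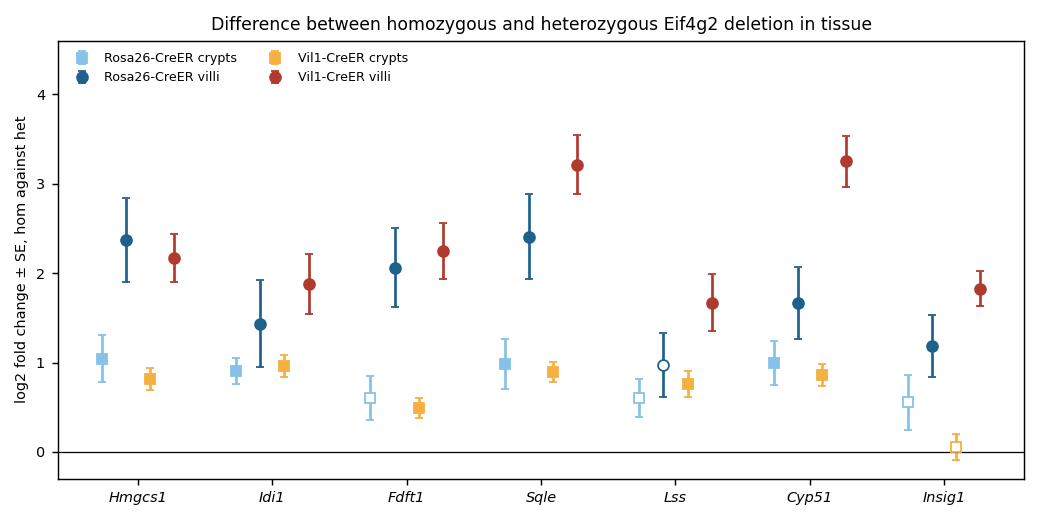
Log2 fold change of each member, homozygous against heterozygous, with its SE, in crypts (squares) and villi (circles) of both drivers. Filled symbols passed the test and open symbols did not; the largest changes are those of Sqle and Cyp51 in Vil1-CreER villi, at 3.21 and 3.25.

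In crypts, which hold the stem and dividing cells, the same comparison of genotypes was made. In Vil1-CreER crypts 6 of 7 members were higher in homozygous mice, against 11.6% of all genes called higher, with a median of 0.82 beside 0.01 for all genes on the log2 scale. Idi1 rose 1.95-fold (log2 0.96 ± 0.12, adjusted p = 0.000926), from 58.2, 53.5, 73.4 and 58.2 CPM to 121, 116 and 126 CPM. Sqle rose 1.86-fold (log2 0.89 ± 0.11, adjusted p = 0.000867), from 86.8, 73.7, 90.5 and 81.7 CPM to 167, 139 and 167 CPM. Cyp51 rose by 0.86 ± 0.12, Hmgcs1 by 0.82 ± 0.13 and Lss by 0.76 ± 0.15 (adjusted p = 0.00165, 0.00234 and 0.00595). All 6 members called lay wholly above the heterozygous libraries, as did 19.4% of all genes. Insig1 read 75.1, 79.5, 104 and 88.0 CPM against 103, 78.5 and 94.1 CPM, with a log2 difference of 0.06 ± 0.14 that did not pass the test (adjusted p = 0.795). Fdft1 rose by 0.49 ± 0.11, and lost its call without homozygous replicate 1 or 3 (adjusted p = 0.0563 and 0.0546).

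In Rosa26-CreER crypts 4 of 7 members were higher in homozygous mice, against 8.63% of all genes called higher. The median was 0.90 beside 0.04 for all genes. Idi1 rose 1.87-fold (log2 0.90 ± 0.14, adjusted p = 0.00319), from 56.3, 48.9, 38.2, 53.3 and 53.0 CPM to 108, 107, 80.7 and 82.5 CPM. Hmgcs1, Cyp51 and Sqle rose by 1.05 ± 0.26, 1.00 ± 0.25 and 0.98 ± 0.28 on the log2 scale (adjusted p = 0.0231, 0.0223 and 0.0354). Hmgcs1 read 442, 222, 235 and 223 CPM in homozygous crypts and at most 177 CPM in heterozygous ones. Fdft1, Lss and Insig1 were 0.60 ± 0.24, 0.61 ± 0.21 and 0.56 ± 0.31 higher and did not pass (adjusted p = 0.109, 0.0712 and 0.223). Without heterozygous replicate 2, 3 or 5 only Idi1 passed in each fit. Sqle also lost its call without homozygous replicate 1 or 3 or heterozygous replicate 4 (adjusted p = 0.0584, 0.0580 and 0.0582), and without homozygous replicate 5 Fdft1 and Lss passed (0.0394 and 0.0332). Lss also passed without a low-count filter (0.0468), by DESeq2's Wald test (0.0478) and with the series of animal numbers as a covariate (0.0438). With all 4 Rosa26-CreER groups in 1 fit 0 of 7 members passed in crypts, beside 8.51% of all genes called higher. In the like fit of the Vil1-CreER groups 2 of 7 passed, Hmgcs1 and Cyp51, beside 6.30%, and Idi1, Sqle, Lss and Fdft1 lost their calls (adjusted p = 0.0549, 0.0545, 0.118 and 0.311).

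Among the other enzymes, 4 of 14 rose and 0 fell in Rosa26-CreER crypts and 9 rose and 0 fell in Vil1-CreER crypts. Fdps rose by 1.92 ± 0.47 and 1.26 ± 0.18 on the log2 scale, and Msmo1 by 1.18 ± 0.30 and 0.88 ± 0.15. Of the 10 regulators 2 rose and 1 fell in Rosa26-CreER crypts, where the protease gene Mbtps1 fell by 0.41 ± 0.06 and the ubiquitin ligase gene Rnf139 rose by 0.30 ± 0.08, and 3 rose and 2 fell in Vil1-CreER crypts, where Scap rose by 0.54 ± 0.08 and the protease gene Mbtps2 by 0.51 ± 0.09. Of the 12 transport genes 1 rose and 1 fell in Rosa26-CreER crypts, Abca1 (1.93 ± 0.57) and Soat1, which esterifies cholesterol (-1.46 ± 0.26). In Vil1-CreER crypts 1 rose and 5 fell, among them Soat1 (-1.87 ± 0.12) and Abcg8 (-1.83 ± 0.28).

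Other features of the crypt libraries moved with genotype. The 4 crypt stem cell markers summed to 4834 to 8039 CPM in heterozygous and 174 to 922 CPM in homozygous Rosa26-CreER crypts, and to 5794 to 6468 CPM and 198 to 478 CPM in Vil1-CreER crypts. All 4 fell in the first and 3 of 4 in the other, while all 3 Paneth cell markers fell in both. Of 4 proliferation markers 2 fell in crypts of each driver, from 818 to 1009 CPM summed to 419 to 760 CPM in Rosa26-CreER and from 1186 to 1437 CPM to 806 to 985 CPM in Vil1-CreER mice. Of 6 enterocyte markers 0 changed in Rosa26-CreER crypts (1749 to 2883 CPM against 2022 to 6197 CPM) and 3 fell in Vil1-CreER crypts (810 to 2257 CPM against 413 to 989 CPM). The 9 immune markers summed to 137 to 485.03 CPM in heterozygous and 97.4 to 2316 CPM in homozygous Rosa26-CreER crypts, with medians of 203 and 1108 CPM and 0 of 9 called, and to 81.6 to 747 CPM and 488 to 696 CPM in Vil1-CreER crypts, where 2 rose and 1 fell. The 8 stromal markers summed to 30.1 to 1063 CPM and 47.8 to 2789 CPM in Rosa26-CreER crypts, with medians of 217 and 728 CPM and 0 called, and to 8.78 to 64.8 CPM and 35.7 to 72.1 CPM in Vil1-CreER crypts, where 1 of 6 tested rose. The share of counts on mitochondrial genes was 6.24 to 12.4% in heterozygous and 13.7 to 25.2% in homozygous Rosa26-CreER crypts, and 17.5 to 30.8% and 30.4 to 40.3% in Vil1-CreER crypts. In villi the shares overlapped between genotypes. Of the immune markers 4 fell in homozygous villi of either driver. The Paneth cell markers summed to 124 to 194 CPM against 15.7 to 95.3 CPM in Rosa26-CreER villi, where 1 of 3 fell, and to 116 to 303 CPM against 28.5 to 106 CPM in Vil1-CreER villi, where 2 of 3 fell. The summed enterocyte markers overlapped between genotypes in villi, where 1 of 6 rose in Rosa26-CreER and 2 of 6 fell in Vil1-CreER mice. Of the stem cell markers 0 rose and 1 of 3 tested fell in Rosa26-CreER villi and 1 rose and 1 fell in Vil1-CreER villi, of 5 epithelial markers 2 rose and 1 fell and 3 rose and 1 fell, and of the stromal markers 0 and 1 rose and 0 fell. Of the proliferation markers 1 rose in villi of each driver, where their sum was 73.0 to 102 CPM against 116 to 169 CPM in Rosa26-CreER mice and 96.7 to 131 CPM against 128 to 337 CPM in Vil1-CreER mice. Reads of the Y-linked gene Ddx3y were under 1 CPM in 3 of 4 homozygous Rosa26-CreER crypt libraries, 3 of 5 homozygous villus libraries and 0 of 10 heterozygous ones. Sex, as read from this gene, thus partly coincides with genotype in this set, and the 2 cannot be fully told apart. With these reads as a covariate, 7 of 7 members passed in Rosa26-CreER crypts, beside 8.26% of all genes called higher, and 7 of 7 in villi, beside 9.72%. The estimates moved with the covariate by over 1.5 times in fold for 5 members in crypts: Hmgcs1 from 1.045 to 1.73, Sqle from 0.98 to 1.65, Cyp51 from 1.00 to 1.64, Insig1 from 0.56 to 1.34 and Fdft1 from 0.60 to 1.21 on the log2 scale. In villi they did so for 2, Hmgcs1 from 2.37 to 3.03 and Fdft1 from 2.06 to 2.66. The part of cell makeup and of the mitochondrial share in the members' differences was not tested.

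The difference between villi and crypts was itself tested as an interaction of genotype with compartment. By edgeR's quasi-likelihood test Eif4g2 itself fell less in crypts of Rosa26-CreER mice (log2 0.62 ± 0.15, adjusted p = 0.0163). In Vil1-CreER mice its difference of 0.36 ± 0.17 did not pass (0.151). The part of the Eif4g2 difference in those of the members was not tested. In Vil1-CreER mice the genotype effect was smaller in crypts for 5 of 7 members, against 9.38% of all genes called in that direction. Cyp51 differed most (log2 -2.41 ± 0.37, adjusted p = 0.00118), followed by Sqle (-2.34 ± 0.43, 0.00332), Insig1 (-1.80 ± 0.28, 0.00108), Fdft1 (-1.78 ± 0.42, 0.0117) and Hmgcs1 (-1.37 ± 0.37, 0.0198) by edgeR's quasi-likelihood test. Idi1 and Lss differed by -0.94 ± 0.45 and -0.94 ± 0.43 and did not pass (0.163 and 0.151). With the animal as a replicate block, which pairs crypts and villi of 1 mouse, Lss passed too (adjusted p = 0.0195). Hmgcs1 lost its call without homozygous crypt replicate 2 (0.0588), and Idi1 gained one without heterozygous villus replicate 1 (0.0465). In Rosa26-CreER mice all 7 estimates were also below 0, from -1.57 to -0.48, yet 0 of 7 passed, against 11.5% of all genes called in either direction. An unadjusted p under 0.05 was reached by 3 of 7 members, beside 28.4% of all genes. The estimates were -1.57 ± 0.52 for Fdft1, -1.54 ± 0.57 for Sqle, -1.43 ± 0.56 for Hmgcs1, -0.78 ± 0.50 for Cyp51, -0.74 ± 0.49 for Insig1, -0.64 ± 0.54 for Idi1 and -0.48 ± 0.44 for Lss. DESeq2's Wald test called Fdft1 and Sqle there (adjusted p = 0.0246 and 0.0447), beside 15.6% of all genes. Leaving out homozygous villus replicate 5 brought 3 calls, and leaving out heterozygous villus replicate 1 brought 1. The animal block gave 0 of 7 calls, with 777 genes called over the whole table in place of 1904. Of the other enzymes 0 had a larger and 6 a smaller genotype effect in Vil1-CreER crypts than in villi, among them Msmo1 (-1.58 ± 0.31) and Tm7sf2 (-1.498 ± 0.26), and in Rosa26-CreER mice 0 and 1, namely Lbr (-1.52 ± 0.20). Of the regulators 0 had a larger and 3 a smaller effect in Vil1-CreER crypts, among them Srebf2 (-1.19 ± 0.24) and Scap (-0.76 ± 0.16), and in Rosa26-CreER mice 0 and 1, again Srebf2 (-1.03 ± 0.25). Of the transport genes 1 was called above 0, Abca1 (2.32 ± 0.51), and 6 below 0, among them Abcg8 (-1.23 ± 0.27), in Vil1-CreER mice, and 0 and 0 in Rosa26-CreER mice.

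Crypts and villi of heterozygous mice, taken from the same animals, were compared in each set, in fits that left out the animal. In Vil1-CreER mice 6 of 7 members were higher in crypts, against 35.2% of all genes called higher there. Idi1 was 1.56 ± 0.30 higher on the log2 scale (adjusted p = 0.00129), and Lss (0.88 ± 0.16), Sqle (0.83 ± 0.25), Fdft1 (0.75 ± 0.19), Cyp51 (0.73 ± 0.20) and Insig1 (0.39 ± 0.12) followed. Insig1 lost its call without villus replicate 2 or 3 (adjusted p = 0.0522 and 0.0541). It also missed the threshold by DESeq2's Wald test (0.0504). Hmgcs1 did not differ beyond its spread (0.03 ± 0.19, adjusted p = 0.89). In Rosa26-CreER mice 2 members were higher in crypts and 2 lower, beside 77.1% of all genes called in either direction. Insig1 was 1.55 ± 0.25 lower in crypts (adjusted p = 0.000133) and Cyp51 0.99 ± 0.31 lower (0.0118), while Lss was 0.75 ± 0.22 higher (0.00765) and Idi1 0.88 ± 0.34 higher (0.0355). Fdft1, Sqle and Hmgcs1 did not pass (0.25 ± 0.24, 0.11 ± 0.32 and -0.071 ± 0.28, adjusted p = 0.364, 0.751 and 0.823). Idi1 was higher in crypts in 5 of 5 mice, but lost its call without any 1 of 8 libraries, namely crypt replicate 1, 2, 4 or 5 or villus replicate 2, 3, 4 or 5 (adjusted p up to 0.0853). Without a low-count filter 2 of 7 members were called in this comparison, and Idi1 and Cyp51 were not (adjusted p = 0.0859 and 0.0741). Of the other enzymes 3 were higher and 6 lower in Vil1-CreER crypts than in villi, and 3 and 8 in Rosa26-CreER mice, with Lbr, a sterol reductase of the nuclear envelope, at 2.63 ± 0.12 and 2.91 ± 0.14 and Sc5d at -1.54 ± 0.10 and -2.38 ± 0.13. Of the regulators 3 were higher and 6 lower in the first set named, with Insig2 at -1.97 ± 0.09 and Srebf2 at 1.00 ± 0.13, and 3 and 5 in the other, with Insig2 at -2.31 ± 0.13 and Erlin2 at -1.29 ± 0.12. Of the transport genes 2 were higher and 8 lower in Vil1-CreER crypts, with Soat1 at 3.325 ± 0.13 and Npc1l1 at -3.06 ± 0.24, and 3 and 8 in Rosa26-CreER crypts, with Npc1l1 at -3.82 ± 0.26 and Soat2 at -3.50 ± 0.17. The 2 sets differ in driver and in time after tamoxifen, and the difference between them was not tested.

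In organoids, members called in the second set were higher and those called in the first were lower. Insig1 alone was called in both sets, and in the second only against wild-type. In the second set the flox/flox libraries, which had all received 4-OHT, were compared with both controls, which share the flox/flox libraries. Against wild-type, 6 of 7 members were higher, beside 21.9% of all genes called higher, and against flox/+, 3 of 7, beside 22.6%. Hmgcs1 read 499, 447, 620.5 and 484 CPM in wild-type, 611, 574, 543 and 523 CPM in flox/+ and 759, 877, 709 and 770.3 CPM in flox/flox organoids. By edgeR's test it rose 1.51-fold against wild-type (log2 0.59 ± 0.10, adjusted p = 0.000161) and 1.37-fold against flox/+ (0.45 ± 0.10, 0.00128). Sqle rose by 0.55 ± 0.11 and 0.35 ± 0.11, and Idi1 by 0.39 ± 0.10 and 0.27 ± 0.10. Fdft1, Cyp51 and Insig1 rose against wild-type by 0.33 ± 0.09, 0.45 ± 0.15 and 0.44 ± 0.16, and did not pass against flox/+ (0.20 ± 0.09, 0.36 ± 0.15 and 0.19 ± 0.16, adjusted p = 0.0832, 0.0596 and 0.386). Lss passed in neither (0.25 ± 0.15 and 0.16 ± 0.15, adjusted p = 0.196 and 0.411).

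The count against flox/+ was 1 of 7 without flox/flox replicate 2 and 6 of 7 without flox/flox replicate 3, the library in which every member was lowest of that group. Idi1 lost its call in that comparison without flox/flox replicate 1 or 2 or any 1 flox/+ library (adjusted p up to 0.124), and Sqle without flox/flox replicate 2 (0.0563). With no low-count filter 1 of 7 was called, Hmgcs1, and Idi1 and Sqle were not (adjusted p = 0.0801 and 0.0603). Cyp51 passed against flox/+ by DESeq2's Wald test (0.0256) and in a fit of these 2 groups alone (0.0184). Against wild-type, Cyp51 and Insig1 lost their calls without any 1 of the same 6 libraries (flox/flox or wild-type replicate 1, 2 or 4), and Lss passed without flox/flox replicate 3 (adjusted p = 0.0036). Both also lost them without a low-count filter (adjusted p = 0.0806 and 0.124) and in a fit of these 2 groups alone (0.0663 and 0.079), which left 4 of 7 members called in each. Loss of a single copy was compared as flox/+ against wild-type. There 0 of 7 members passed edgeR's test and 0 of 7 DESeq2's, with 0 of 7 at an unadjusted p under 0.05, beside 0.113% of all genes called and 10.4% at an unadjusted p under 0.05. The log2 estimates were 0.25 ± 0.16 for Insig1, 0.19 ± 0.11 for Sqle, 0.14 ± 0.10 for Hmgcs1, 0.13 ± 0.09 for Fdft1, 0.11 ± 0.10 for Idi1, 0.090 ± 0.15 for Lss and 0.086 ± 0.14 for Cyp51. No gene of the 3 pathway lists was called there.

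Of the 14 other enzymes 9 rose and 0 fell against wild-type and 5 rose and 0 fell against flox/+. The sterol reductase gene Tm7sf2 rose by 0.69 ± 0.10 and 0.60 ± 0.10, Fdps by 0.66 ± 0.14 against wild-type, and Hsd17b7 by 0.44 ± 0.12 against flox/+. Of the 10 regulators 7 rose and 2 fell in each comparison, with Mbtps2 up by 0.54 ± 0.06 and 0.48 ± 0.06, Scap up by 0.47 ± 0.07 against wild-type and Insig2 up by 0.47 ± 0.08 against flox/+. Of the 12 transport genes 2 rose and 3 fell against wild-type, and 1 rose and 3 fell against flox/+. Abca1 fell by 2.84 ± 0.36 and 3.59 ± 0.35 and Soat1 by 2.01 ± 0.09 and 1.81 ± 0.09 on the log2 scale. All 4 stem cell and all 3 Paneth cell markers were lower in flox/flox organoids. The stem cell markers summed to 5049 to 6531 CPM in wild-type, 4686 to 6463 CPM in flox/+ and 1198 to 1938 CPM in flox/flox organoids, and their part in the members' differences was not tested.

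In the first organoid set each flox/flox line was given both treatments, but the main fit left out the line. In that fit 2 of 7 members were lower with 4-OHT and 0 higher, beside 17.2% of all genes called lower. With the line as a block 2 of 7 were called too, with 6622 genes called over the whole table in place of 5422. Insig1 read 648, 589.5 and 576 CPM with DMSO and 243, 384 and 278 CPM with 4-OHT, and fell 2.01-fold by edgeR's test (log2 -1.01 ± 0.17, adjusted p = 0.00387). Lss read 288, 257 and 259 CPM against 140.0, 199 and 210.0 CPM (log2 -0.56 ± 0.16, adjusted p = 0.0304), and lost its call without any 1 of the 3 DMSO libraries (adjusted p up to 0.103). Sqle, which rose in villi of both drivers, read 329.8, 292 and 288 CPM with DMSO and 262, 334 and 292 CPM with 4-OHT (log2 -0.04 ± 0.11, adjusted p = 0.804). Fdft1, Hmgcs1 and Idi1 did not pass either (-0.28 ± 0.12, -0.16 ± 0.12 and -0.12 ± 0.12, adjusted p = 0.101, 0.345 and 0.47). Of the 14 other enzymes 0 rose and 4 fell, with Dhcr7, the last reductase of the pathway, down by 0.86 ± 0.13 and Sc5d down by 0.72 ± 0.11. Of the 10 regulators 3 rose and 0 fell, among them Scap (0.61 ± 0.07) and Mbtps2 (0.52 ± 0.11). Of the 11 transport genes tested 2 rose and 4 fell, among them Abcg1 (1.38 ± 0.31) and Soat1 (-1.51 ± 0.11). All 4 stem cell markers fell, from 884 to 1280 CPM summed to 113 to 160.4 CPM, and 4 of 6 enterocyte markers, from 6175 to 8253 CPM to 2966 to 4395 CPM, and their part was not tested. Cyp51 was 0.37 ± 0.14 lower (adjusted p = 0.0803) and passed without 4-OHT replicate 2 (0.0311). In a fit that also held the 16 libraries of the A-485 experiment from the same table, 4 of 7 members were called lower, beside 10.1% of all genes. The first set compares 4-OHT with DMSO and the second compares genotypes that all had 4-OHT, and the difference between the sets was not tested.

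In spheroids the genotypes were compared before and after the deletion, with lines and libraries shared between these comparisons. With DMSO all 7 estimates were higher in flox/flox than in flox/+ lines, but 0 of 7 passed edgeR's test or DESeq2's Wald test, beside 0% of all genes called by edgeR. An unadjusted p under 0.05 was reached by 6 of 7 members, beside 7.21% of all genes. The log2 estimates with DMSO were 1.31 ± 0.33 for Insig1, 1.15 ± 0.28 for Lss, 0.86 ± 0.25 for Cyp51, 0.78 ± 0.20 for Hmgcs1, 0.70 ± 0.22 for Idi1, 0.64 ± 0.23 for Sqle and 0.44 ± 0.25 for Fdft1. Of the members Cyp51 alone did not overlap between genotypes with DMSO, where 0.359% of all genes lay wholly above. With 4-OHT the estimates ran from 0.30 to 0.80, and 2 of 7 members passed, Hmgcs1 (0.80 ± 0.20, adjusted p = 0.0133) and Sqle (0.76 ± 0.23, 0.0388), beside 4.36% of all genes called higher. Lss, Insig1, Idi1, Cyp51 and Fdft1 did not pass (0.78 ± 0.28, 0.74 ± 0.32, 0.67 ± 0.22, 0.63 ± 0.25 and 0.30 ± 0.25, adjusted p = 0.0739, 0.149, 0.0598, 0.109 and 0.49). Hmgcs1 read 253, 297, 285, 322 and 269 CPM in flox/+ lines with DMSO and 225, 313, 304, 281 and 248 CPM with 4-OHT. In flox/flox lines it ran from 320 through a median of 512 to 664 CPM with DMSO and from 308 through 414 to 677 CPM with 4-OHT. Eif4g2 in flox/flox lines fell from 787 ± 141 to 111 ± 43.2 CPM (SD, n = 6), while that of flox/+ lines went from 794 ± 201 to 455 ± 109 CPM (n = 5). The latter was -0.81 ± 0.24 on the log2 scale, with an adjusted p of 1 in edgeR's fit without the line, and -0.80 ± 0.08 with the line as a replicate block, where Eif4g2 passed (adjusted p = 0.0159). In the comparison of genotypes with 4-OHT, Sqle lost its call without any 1 of 8 libraries (flox/flox replicate 1, 3 or 5, or any flox/+ replicate, adjusted p up to 0.108), and without flox/flox replicate 6 the count was 5 of 7. Sqle also lost it without a low-count filter (0.0555) and in a fit of these 2 groups alone (0.103). Stem cell markers varied widely between lines with 4-OHT, from 94.2 to 5271 CPM in flox/+ and 9.08 to 353 CPM in flox/flox lines, and 8 stromal markers summed to 2.86 to 152 CPM in flox/+ and 0 to 5.62 CPM in flox/flox lines. Enterocyte markers summed with DMSO to 72.7 to 2622 CPM in flox/+ and 554 to 5514 CPM in flox/flox lines. Stromal markers summed with DMSO to 6.32 to 197 CPM and 1.53 to 7.55 CPM. In flox/flox lines the median sum of the enterocyte markers was 1816 CPM with DMSO and 52.3 CPM with 4-OHT. The part of these cell markers in the members' differences was not tested.

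In fits that left out the line, 4-OHT against DMSO gave 0 of 7 calls in flox/flox spheroids by edgeR's and by DESeq2's test. In edgeR's fit 1 of 7 had an unadjusted p under 0.05, beside 19.1% of all genes called and 31.5% at an unadjusted p under 0.05. With the line as a block 0 of 7 were called while the count over all genes went from 2864 to 4649. Insig1 was lower with 4-OHT in 5 of 6 lines (log2 -0.69 ± 0.30, adjusted p = 0.12) and passed without 4-OHT replicate 1 (0.0292). Lss, Cyp51, Fdft1, Idi1, Hmgcs1 and Sqle read -0.43 ± 0.26, -0.26 ± 0.23, -0.17 ± 0.24, -0.059 ± 0.21, -0.038 ± 0.19 and 0.041 ± 0.22 on the log2 scale. In flox/+ spheroids 0 of 7 passed either test, with 0 of 7 at an unadjusted p under 0.05, beside 0% of all genes called and 0.0998% at an unadjusted p under 0.05. The log2 estimates were -0.13 ± 0.33 for Insig1, -0.079 ± 0.24 for Sqle, -0.062 ± 0.21 for Hmgcs1, -0.057 ± 0.28 for Lss, -0.034 ± 0.26 for Cyp51, -0.026 ± 0.23 for Idi1 and -0.025 ± 0.26 for Fdft1. The difference between the genotypes in their response to 4-OHT gave 0 of 7 calls by either test and 0 of 7 at an unadjusted p under 0.05, beside 13.9% of all genes at that level and 1.62% called, 243 genes, which became 2758 with the line as a block. Its estimates were -0.56 ± 0.45 for Insig1, -0.37 ± 0.38 for Lss, -0.23 ± 0.35 for Cyp51, -0.14 ± 0.35 for Fdft1, -0.033 ± 0.31 for Idi1, 0.025 ± 0.28 for Hmgcs1 and 0.12 ± 0.32 for Sqle. Of the 14 other enzymes 3 were higher in flox/flox lines with 4-OHT, among them Fdps (1.66 ± 0.30) and Hsd17b7 (1.15 ± 0.24), and 0 of 14 changed with 4-OHT within either genotype. Among the 10 regulators 1 was higher and 0 lower in flox/flox lines with 4-OHT, Scap (0.79 ± 0.16), and of the 12 transport genes 2 were higher and 1 lower, among them Npc1, the lysosomal sterol transporter (0.51 ± 0.14), and Soat1 (-1.33 ± 0.33). Within flox/flox lines 4-OHT changed 1 regulator, Scap, which rose by 0.60 ± 0.15, and 2 transport genes in opposite directions: Npc1 rose by 0.94 ± 0.13, and Soat2, which esterifies cholesterol, fell by 1.94 ± 0.63. The response to 4-OHT differed between genotypes for 1 gene of the 3 lists, Npc1 (0.83 ± 0.20). Within flox/+ lines, and between genotypes with DMSO, 0 genes of the 3 lists were called.

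**Figure D3:**
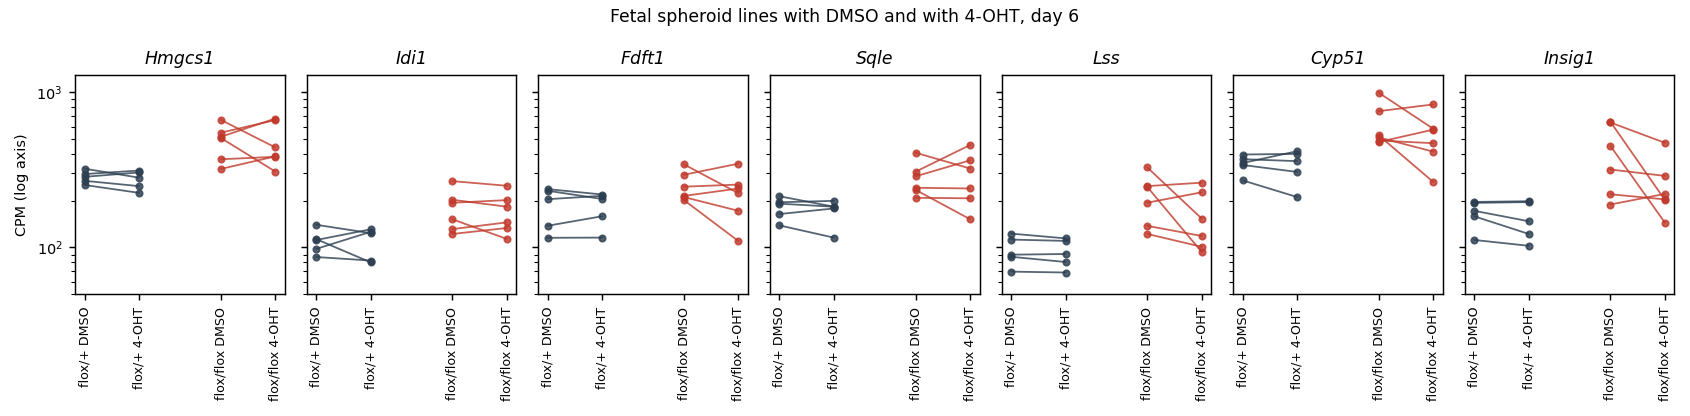
Level of each member in fetal spheroid lines with DMSO and with 4-OHT, in CPM on a log axis; a line joins the libraries of 1 spheroid line, dark for flox/+ and red for flox/flox. Most flox/flox lines sit above the flox/+ lines under both treatments, with overlap in every panel but that of Cyp51 with DMSO.

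Fetal spheroids were also set against second-set organoids, both flox/+ with 4-OHT and from 1 table. Of 7 members 6 were lower in spheroids, beside 22.8% of all genes called lower. Insig1 was 2.83-fold lower (log2 -1.502 ± 0.20, adjusted p = 0.000306), at 103, 198, 196, 148 and 122 CPM against 523, 424, 420 and 396 CPM. Lss was 2.41-fold lower (-1.27 ± 0.14, adjusted p = 0.000149), and Idi1, Hmgcs1, Sqle and Cyp51 were lower by 1.11 ± 0.16, 1.01 ± 0.11, 0.83 ± 0.14 and 0.73 ± 0.18 on the log2 scale. None of these 6 overlapped between the groups, beside 23.4% of all genes that lay wholly below. Fdft1 overlapped, and its difference of -0.15 ± 0.17 did not pass (adjusted p = 0.509). Of the 14 other enzymes 0 were higher and 12 lower, with Fdps lower by 2.18 ± 0.23 and Dhcr7 by 1.07 ± 0.15. Among the 10 regulators 3 were higher and 3 lower, with Insig2, the paralog of Insig1, higher in spheroids by 1.501 ± 0.26 and Mbtps2 by 0.56 ± 0.12. Of the 12 transport genes 3 were higher and 3 lower, with Soat2 at -2.26 ± 0.35 and Nr1h3, which encodes the receptor LXR alpha, at -2.04 ± 0.64 on the log2 scale. The 4 proliferation markers were all lower in spheroids, at 434 to 928 CPM summed against 1274 to 1525 CPM, the 6 enterocyte markers at 37.6 to 1738 CPM against 2046 to 4344 CPM, and the 8 stromal markers at 2.86 to 152 CPM against 0.304 to 1.33 CPM. The part of these cell markers in the members' difference was not tested.

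With A-485, organoids with intact Eif4g2 had lower levels of the members at each dose. All 7 were lower at 3 µM, beside 8.42% of all genes called lower, all 7 at 5 µM, beside 25.1%, and all 7 at 10 µM, beside 32.6%. The 3 comparisons share the DMSO libraries. The members' median log2 difference was -0.50 at 3 µM, -0.82 at 5 µM and -1.65 at 10 µM, beside 0.00, -0.02 and -0.05 for all 13724 genes tested. Every library of every member lay below all DMSO libraries at each dose, beside 14.9%, 28.0% and 34.3% of all genes at 3, 5 and 10 µM, and every member was lower in 4 of 4 lines.

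Insig1 read 490.4, 657, 525 and 543 CPM with DMSO, 329.9, 312, 354 and 312 CPM at 3 µM, 271, 277, 316 and 239 CPM at 5 µM and 145, 142, 120.2 and 130.2 CPM at 10 µM. It fell 4.05-fold at 10 µM (log2 -2.02 ± 0.11, adjusted p = 5.18e-11) and 1.67-fold at 3 µM (-0.74 ± 0.10, 7e-05). Lss fell 3.99-fold at 10 µM (-1.996 ± 0.10, adjusted p = 3.22e-11), from 274, 309, 305 and 289 CPM to 77.7, 75.8, 71.7 and 64.9 CPM. Hmgcs1, Idi1, Cyp51 and Sqle fell as well, with log2 differences of -1.65 ± 0.12, -1.68 ± 0.12, -1.496 ± 0.10 and -1.43 ± 0.09 at 10 µM. At 3 µM the log2 differences were -0.555 ± 0.12 for Idi1, -0.53 ± 0.10 for Cyp51, -0.505 ± 0.10 for Lss, -0.42 ± 0.08 for Fdft1, -0.41 ± 0.11 for Hmgcs1 and -0.36 ± 0.09 for Sqle. At 5 µM they were -0.99 ± 0.10 for Insig1, -0.985 ± 0.10 for Lss, -0.96 ± 0.12 for Idi1, -0.82 ± 0.10 for Cyp51, -0.75 ± 0.11 for Hmgcs1, -0.625 ± 0.09 for Sqle and -0.42 ± 0.08 for Fdft1. Fdft1 moved least, from 274, 291, 269.6 and 288 CPM with DMSO to 194, 212, 201 and 219.9 CPM at 3 µM and 187, 184, 178 and 196 CPM at 10 µM (log2 -0.57 ± 0.08 at 10 µM, adjusted p = 6.6e-06).

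Between 10 and 3 µM, 6 of 7 members were lower at the higher dose, beside 27.2% of all genes called lower, with log2 differences of -1.49 ± 0.10 for Lss, -1.28 ± 0.10 for Insig1, -1.24 ± 0.12 for Hmgcs1, -1.12 ± 0.12 for Idi1, -1.06 ± 0.09 for Sqle and -0.96 ± 0.10 for Cyp51. Fdft1 differed by -0.15 ± 0.08 and did not pass (adjusted p = 0.141). Hmgcs1 at 3 µM lost its call without 3 µM replicate 1 (adjusted p = 0.0652). Each of the other calls at 3, 5 and 10 µM held when any 1 library was left out.

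**Figure D4:**
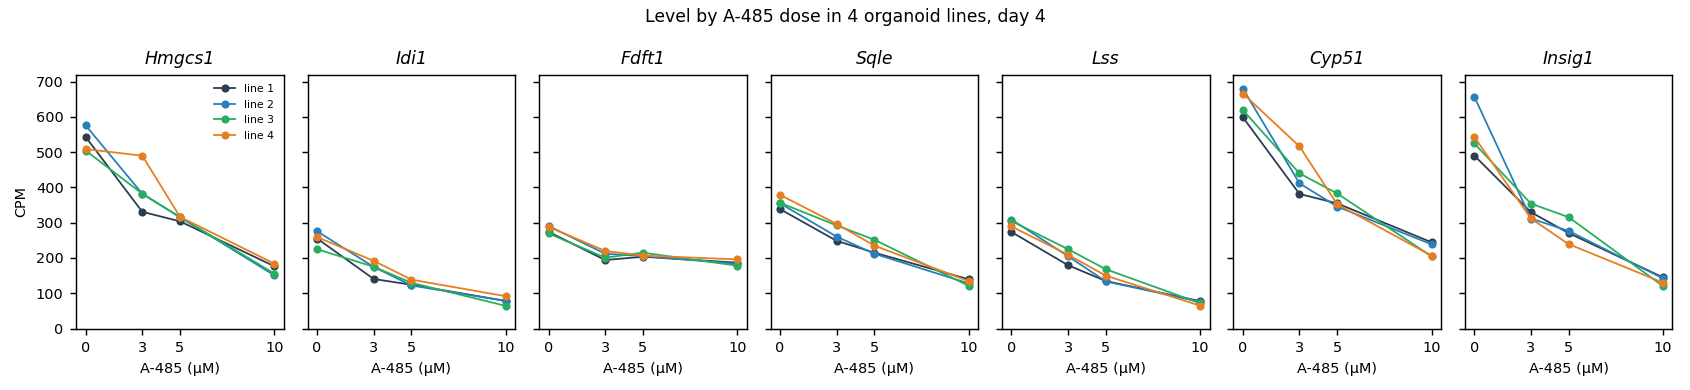
Level of each member, in CPM, against A-485 dose in µM, with 0 for DMSO; each coloured line joins the 4 libraries of 1 organoid line. All members are lower at each dose than with DMSO. Fdft1 is the flattest, at 269.6 to 291 CPM with DMSO and 178 to 196 CPM at 10 µM. Its mean does not fall between 3 µM (206.8 CPM) and 5 µM (207.6 CPM), while the means of the other members fall at each step.

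Among 14 other enzymes of the pathway, 5, 7 and 10 were lower at 3, 5 and 10 µM and 0, 1 and 1 higher. Dhcr7 fell by 0.79 ± 0.15 at 3 µM and 1.25 ± 0.15 at 5 µM, Mvd by 0.77 ± 0.21 at 3 µM and Lbr by 1.20 ± 0.11 at 5 µM, and at 10 µM Fdps fell by 2.90 ± 0.37 and Pmvk, a kinase of the mevalonate branch, by 2.27 ± 0.30. Of the 10 regulators 2, 5 and 7 were higher at 3, 5 and 10 µM and 0, 1 and 2 lower. Insig2 rose by 0.75 ± 0.16, 1.25 ± 0.16 and 1.33 ± 0.16, Erlin2 rose by 0.28 ± 0.09 at 3 µM and 0.67 ± 0.09 at 5 µM, and the sterol carrier gene Stard4 fell by 1.06 ± 0.11 at 10 µM. Of the 12 transport genes 0 rose and 1 fell at 3 µM, Soat1 by 0.405 ± 0.11, and at 5 µM 1 rose, Nr1h2 by 0.56 ± 0.21, and 1 fell, Soat1 by 1.16 ± 0.11. The transporter genes Abcg5 and Abcg8, whose proteins pump sterols back into the gut lumen, fell by 3.35 ± 0.35 and 4.02 ± 0.38 at 10 µM, among 7 of 12 transport genes that fell and 2 that rose. Between 10 and 3 µM 2 other enzymes were higher and 7 lower, with Fdps at -2.23 ± 0.37 and Pmvk at -1.78 ± 0.29 on the log2 scale. There 5 regulators were higher and 2 lower, with Stard4 at -0.745 ± 0.11 and Insig2 at 0.58 ± 0.16, and 2 transport genes were higher and 7 lower, with Abcg8 at -3.59 ± 0.38 and Abcg5 at -3.17 ± 0.35 on the log2 scale. The summed level of 4 stem cell markers went from 5477 to 6469 CPM with DMSO to 36.6 to 59.7 CPM at 10 µM, where Olfm4 was at 0 counts in every library. The 6 enterocyte markers went from 2985 to 5425 CPM to 106 to 261 CPM and the 4 proliferation markers from 1005 to 1060 CPM to 209 to 278 CPM, while 5 epithelial markers went from 4789 to 5106 CPM up to 7648 to 9824 CPM. Their part in the fall of the members was not tested.

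Group means of log2 CPM were centred within each of the 6 experiments to describe how the members varied together over the 21 groups. With the mean of the other 6 members, Pearson's r was 0.97 for Sqle, 0.95 for Hmgcs1, 0.94 for Cyp51 and 0.93 for Fdft1, and 0.78 for Lss, 0.75 for Insig1 and 0.72 for Idi1. Idi1 and Lss were most alike to each other (r = 0.93), and Idi1 and Insig1 least (r = 0.39). Among 7772 genes outside the members, those most like the members' mean were Mvd (r = 0.94), Mvk (0.93), Nsdhl (0.93), Acsl3 (0.93), Scd1 (0.92), Srebf2 (0.91), Abcb8 (0.90), Rab5if (0.88), Ppme1 (0.88) and Msmo1 (0.86). Mvd, Mvk, Nsdhl and Msmo1 encode enzymes of the pathway, and Acsl3 and Scd1 enzymes of fatty acid metabolism. These values describe 21 group means that share libraries, controls and scaling within experiments.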

How the data were processed

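RNA from 92 mouse libraries was sequenced after poly(A) selection with a dUTP protocol, per the labels' protocols. The authors deposited raw read counts per gene in 4 tables. The submitters' processing notes name HISAT2 2.0.5 and GRCm38/mm10, and the counter is not given in the sources used here. The deposited counts were tested with edgeR 4.0.16 (R 4.3.3, limma 3.58.1): filterByExpr, TMM, its quasi-likelihood F-test, and p-values adjusted by Benjamini-Hochberg over the genes tested in each of 22 comparisons, with a threshold of 0.05. An SE is the log2 fold change over the square root of F. Members, lists and motifs were chosen with earlier results of these data known. All members are named in each comparison. Of every pathway list, counts are given, with the 2 called genes of largest change. Alternatives were DESeq2 1.42.0 (Wald test, size factors), no low-count filter, other sets of groups in the fit, covariates, a replicate block and leaving out each library. The scripts were tested on simulated data. Animals pair crypts with villi, and lines pair 4-OHT or A-485 with DMSO, per library names in the labels. For these pairs, correlations of same-source deviations ran from -0.0025 to 0.86. Elsewhere samples share only a replicate number, so that the block stands in the closing section. The lowest chi-square per degree of freedom between libraries of a group was 6.26, so that none was a repeat.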

Additional observations from a re-analysis of the deposited data

Results flagged for a closer look

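Single libraries stood far from the others of their group in 5 of 126 combinations of member and group with 4 to 10 libraries, where chance alone at 1 in 20 gives 6.3. Hmgcs1 accounted for 3 of them. In homozygous Rosa26-CreER crypts replicate 1 read 442 CPM, and the others read 222 to 235 CPM. In heterozygous Vil1-CreER crypts replicate 3 read 224 CPM, and the others 180.3 to 182 CPM. At 5 µM A-485 replicate 1 read 304 CPM, and the others 315 to 317 CPM. Sqle in flox/+ spheroids with 4-OHT read 116 CPM in replicate 5, against 178 to 199.6 CPM in the others. Insig1 in homozygous Rosa26-CreER villi read 1102 CPM in replicate 1, against 378 to 497 CPM.

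In Vil1-CreER mice the genotype effect differed between crypts and villi by edgeR's quasi-likelihood interaction test for 5 members. The effect in crypts minus that in villi was -1.37 for Hmgcs1, -1.78 for Fdft1, -2.34 for Sqle, -2.41 for Cyp51 and -1.80 for Insig1 on the log2 scale.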

How the results depend on the processing

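Of 2338 values of the 154 member differences under other settings, 2144 kept their direction and their side of the threshold, 94 lost the call, 37 gained one and 63 changed direction, 0 of them for a called difference. Of 84 calls 16 were lost without some 1 library, and of 70 differences without a call 16 gained one. The cause of these changes was not tested.

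The number of members called, of 7, ran over the fits that left out 1 library from 1 to 6 in Rosa26-CreER crypts (4 with all libraries), 0 to 3 in the Rosa26-CreER interaction (0), 1 to 3 in first-set organoids (2), 1 to 6 for flox/flox against flox/+ organoids (3), 0 to 1 for 4-OHT in flox/flox spheroids (0) and 1 to 5 between spheroid genotypes with 4-OHT (2). With all 4 groups of a driver in the fit the count was 0 in Rosa26-CreER and 2 in Vil1-CreER crypts. The count with the Ddx3y covariate is not given for Rosa26-CreER crypts, where the genotype estimate then rests on 1 homozygous library. DESeq2's Wald test gave 2 in the Rosa26-CreER interaction, and 1 fit of 22 libraries gave 4 in first-set organoids. Without a low-count filter it was 2 for heterozygous Rosa26-CreER crypts against villi, 1 for flox/flox against flox/+ organoids and 1 between spheroid genotypes with 4-OHT, where a fit of these 2 groups alone also gave 1.

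Where samples share only a number, a replicate block gave 2 members for flox/flox against wild-type organoids (6 without it) and 0 between spheroid genotypes with 4-OHT (2). Apart from Lss in the Vil1-CreER interaction, the block on animal or line changed no count of members called.

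Differences that changed direction were near 0 and not called. Leaving out 1 library moved Insig1 in Vil1-CreER crypts from -0.034 to 0.21. In heterozygous Rosa26-CreER crypts against villi Hmgcs1 ran from -0.19 to 0.26, with 0.021 without a filter and 0.0064 under the replicate block, and Sqle from -0.054 to 0.42. In the Vil1-CreER set Hmgcs1 ran from -0.12 to 0.22, with -0.0092 under DESeq2's size factors. Sqle in first-set organoids ran from -0.16 to 0.049. For 4-OHT in flox/flox spheroids Hmgcs1 ran from -0.15 to 0.077, Idi1 from -0.20 to 0.10 and Sqle from -0.13 to 0.19, with -0.012 under the block. In flox/+ spheroids Idi1 ran from -0.097 to 0.079, Fdft1 from -0.15 to 0.10, Sqle from -0.16 to 0.032, Lss from -0.15 to 0.043 and Cyp51 from -0.12 to 0.093. In the spheroid interaction Hmgcs1 ran from -0.092 to 0.13, with -0.0097 under DESeq2's size factors and -0.0092 under its Wald test, Idi1 from -0.18 to 0.12 and Sqle from -0.047 to 0.26. Fdft1 in spheroids against organoids ran from -0.21 to 0.017.

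Over all genes and with every library kept, the count called moved by over 1.5 times under other settings in the Rosa26-CreER interaction (1904, with 777 under the block and 1221 without a filter, 2864 by DESeq2), in Rosa26-CreER villi (4504, and 2967 with the Ddx3y covariate), for flox/+ against wild-type organoids (16, 60 without a filter, 146 by DESeq2 and 30 under the block), for first-set organoids (5422, and 3079 in 1 fit of 22 libraries), for 4-OHT in flox/flox spheroids (2864, and 4649 under the block), between spheroid genotypes with 4-OHT (1577, 880 in a fit of 2 groups and 140 under the block) and in the spheroid interaction (243, 123 without a filter, 561 by DESeq2 and 2758 under the block). Leaving out 1 library also moved it by over 1.5 times in 6 comparisons. In Rosa26-CreER crypts (3198) it became 2027 without homozygous replicate 4 and 2010, 2086 and 1937 without heterozygous replicate 2, 3 and 5, and in Vil1-CreER crypts (4960) 3223 without homozygous replicate 1. In the Rosa26-CreER interaction it became 1234, 1079 and 3068 without homozygous crypt replicate 3, 4 and 5, 1167 and 1162 without heterozygous crypt replicate 2 and 5 and 1252 without heterozygous villus replicate 5. In the Vil1-CreER interaction (2766) it became 1804 without heterozygous crypt replicate 1 and 1456 and 1636 without homozygous crypt replicate 1 and 2. For flox/+ against wild-type organoids it became 32 without flox/+ replicate 1 and 1 to 6 without any 1 of flox/+ replicate 2 to 4 and wild-type replicate 1 to 3. In the spheroid interaction it became 131 to 161 without any 1 of flox/flox replicate 1 with DMSO, flox/flox replicate 2 with 4-OHT and flox/+ replicate 2 to 5 with either treatment. It went from 0 to 1 for 4-OHT in flox/+ spheroids under the block and from 0 to 2 between spheroid genotypes with DMSO by DESeq2.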
